A study of Homo sapiens with 6 samples.

Results

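The genes described are 10 that encode transcription factors of the epithelial to mesenchymal transition: ZEB1, ZEB2, SNAI1, SNAI2, TWIST1, TWIST2, TCF4, FOXC1, FOXC2 and PRRX1. They were chosen by name, and all 10 were found by gene ID among the 30727 genes listed. The labels give the source as PANC-1, a human cell line derived from a carcinoma of the pancreatic duct. The labelled extraction protocol speaks of brain cell types instead, so markers of these were read as well. The knockdown group (3 libraries) received siRNA against SUV420H2, and the control group (3 libraries) is labelled only as control for that siRNA. SUV420H2, now named KMT5C, adds the third methyl group to lysine 20 on histone H4 and is best known from heterochromatin. All libraries were of poly(A) RNA from the same line, with no other allele or agent named. The sources used here do not say what the control siRNA was, which sequences were used, or how long after transfection RNA was taken. Nothing says that the libraries came from separate cultures, so each p-value reflects the spread among these 6 libraries alone, which may be technical.

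These factors switch cells from an epithelial to a mesenchymal state. The zinc finger proteins of the ZEB and SNAI families bind E-box motifs in the promoters of junction genes such as CDH1 and recruit corepressors. TWIST proteins and TCF4 belong to the basic helix-loop-helix (bHLH) class, bind E-boxes as dimers with E-proteins, and are held in check by ID proteins that cannot bind DNA. FOXC1 and FOXC2 are forkhead factors of mesoderm, and PRRX1 is a homeobox factor of mesenchyme. ZEB1 and SNAI1 are well known as repressors in pancreatic carcinoma cells, and PANC-1 is known as one of the more mesenchymal lines.

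Libraries held 27007534 to 38022772 counted reads in the knockdown and 20863594 to 25931995 in the control group. KMT5C had 6.03, 6.11 and 5.86 CPM in the knockdown libraries, against 9.55, 7.23 and 12.7 CPM in the control libraries (CPM are counts scaled to library size by the TMM method). Every knockdown value was below every control value (log2 fold change −0.72, SE 0.163, edgeR adjusted p = 0.00227). Of the other lysine 20 methyltransferase genes, KMT5A rose by 0.81 (SE 0.0789) and KMT5B stood at 0.10 (edgeR adjusted p = 0.122). Control replicate 3 stood apart from the other libraries on the second principal component (5.99% of the variance, against 87.1% for the first, which parted the groups). Of the cell type markers, duct and epithelial genes summed to 5930 to 6150 CPM in the knockdown and 2730 to 3260 CPM in the control group, although the duct gene CFTR had 0 to 3 reads per library. Markers of endothelium and of astrocytes each summed to under 3 CPM in every library. Leukocyte and microglia markers summed to 2.26 to 2.66 CPM in the knockdown and 0.771 to 0.901 CPM in the control group, mostly from CD14, the only one of the 8 that was tested (log2 fold change 1.75, edgeR adjusted p = 1.52e-05). Neuron markers summed to 39.6 to 44.1 CPM in the knockdown and 60.2 to 63.4 CPM in the control group. Such sums hide changes in both directions. Of 6 duct and epithelial genes tested, 4 were called higher and 2 lower. Of 5 neuron genes tested, 2 were called higher and 2 lower. Among all genes tested, 33.1% were called higher and 34.2% lower. Fibroblast and pericyte markers summed to 18 to 18.4 CPM in the knockdown and 9.99 to 11.4 CPM in the control group. They were carried by PDGFRB, THY1 and RGS5, while DCN and LUM, which define fibroblasts, had 0 to 3 reads per library. The part of these markers in the results was not tested.

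The E-box that ZEB1 and SNAI proteins prefer is CAGGTG, or CACCTG on the other strand. It was searched on both strands in the 250 bases before each start site of the RefSeq promoter table (GRCh38.p14). Of 37 junction and epithelial genes known as repressed by these factors, 17 were in that table, and 11 of these (64.7%) had at least 1 match, against 20.6% of all 27305 genes in it. A window with at least 2 matches was found for 6 of the 17 (35.3%), against 3.08% of all genes. The list was drawn from genes known as targets, some of them because of this motif, so the share is a description. The match nearest to a start site is shown for 10 of the 11 genes with a match and for ZEB1, in capitals, with 12 bases on each side. The changes of the 11 genes are counted further on, and not each of them is named there. CLDN7, which is not shown, had 4 matches in 1 of its windows. The runs of JUP and MUC1 also hold a second match, left in lower case.
SPINT1 (chr15:40844439-40844468, + strand): tcccgggctgatCAGGTGtgtctcctcctc
ELF3 (chr1:202010455-202010484, + strand): gaatatgcaaatCACCTGgggccaggagcc
TJP3 (chr19:3721718-3721747, + strand): gaggaagaggggCAGGTGcagccgggagct
DSP (chr6:7541574-7541603, + strand): gaagaaaccggcCAGGTGtggcctaggcgc
JUP (chr17:41786002-41786031, − strand): ccacctgccgagCAGGTGagcgcacggagt
OCLN (chr5:69492502-69492531, + strand): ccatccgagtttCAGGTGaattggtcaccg
PATJ (chr1:61742438-61742467, + strand): gggagggcctgcCAGGTGaggcgcggtcac
CRB3 (chr19:6464199-6464228, + strand): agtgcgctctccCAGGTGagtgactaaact
RAB25 (chr1:156061107-156061136, + strand): catctctccaccCACCTGggccccaggtct
MUC1 (chr1:155192973-155193002, − strand): tttgtcacctgtCACCTGctccggctgtgc
ZEB1 (chr10:31318348-31318377, + strand): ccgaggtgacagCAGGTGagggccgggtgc

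CRB3, a small apical polarity protein, had 5 matches in its window, at positions −228, −208, −147, −89 and −60 from the start site, a number reached by 23 genes in the whole table. Of the 10 factor genes, 6 were in the table, and ZEB1 alone of these had a match, in 2 of its 7 windows. A match is a run of letters and does not show that a protein binds there. CDH1, SNAI1, SNAI2, TWIST1 and FOXC2 are named only.

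Between the knockdown and control groups, ZEB1, FOXC1 and FOXC2 fell and SNAI1 rose. Of the 10 genes, 8 passed the filter on low counts, and of these 1 rose, 3 fell and 4 did not pass the test. Across all 15190 genes tested, edgeR's quasi-likelihood test called 67.3% at an adjusted p of 0.05, 33.1% higher and 34.2% lower in the knockdown. The 4 calls among 8 tested genes (50%) were thus no more frequent than over all genes. The median log2 fold change of the 8 was −0.32, against −0.01 over all genes. The groups did not overlap for 6 of the 8 (75%), against 71.3% of all genes tested; 2 of them were higher (35% of all genes) and 4 lower (36.3%). Each of these 4 calls held when any of the 6 libraries was left out. In bulk RNA, fewer cells that express a gene and less RNA per cell cannot be told apart.

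**Figure D1:**
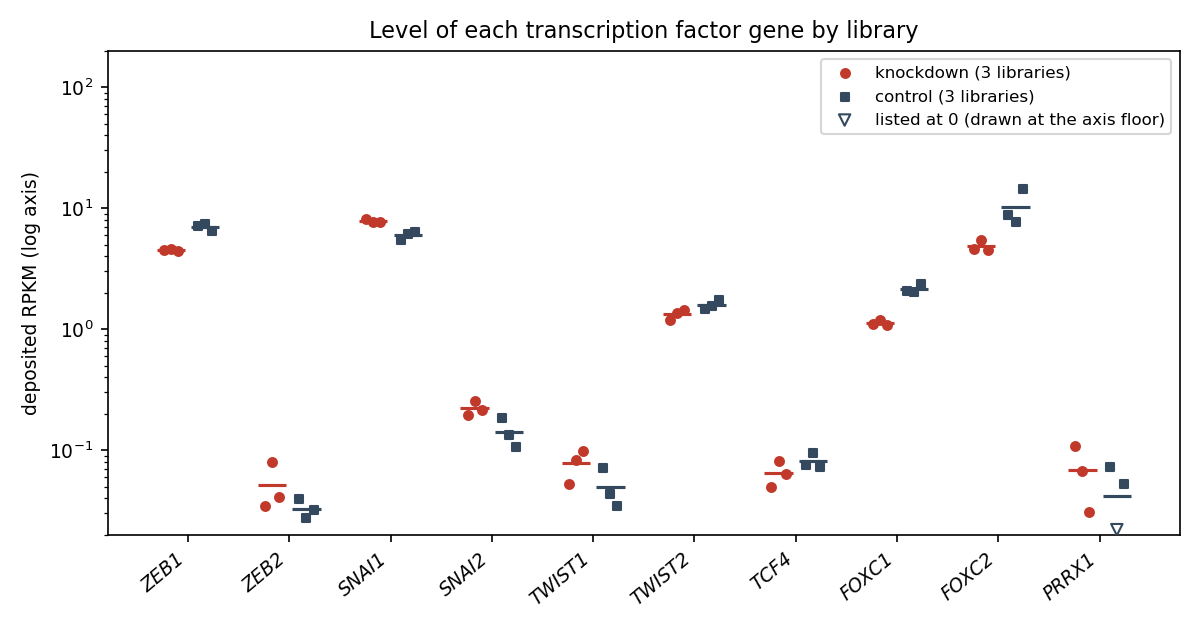
Deposited RPKM (log axis) of the 10 genes in each library, knockdown left and control right, with a line at each group's mean. ZEB1, FOXC1 and FOXC2 lie lower and SNAI1 higher in all 3 knockdown libraries, and ZEB2, SNAI2, TWIST1, TCF4 and PRRX1 lie below 0.3 RPKM in every library.

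The 10 genes fell into a measurable and a nearly silent set. ZEB1, SNAI1, TWIST2, FOXC1 and FOXC2 had at least 70 reads in every library, while ZEB2, SNAI2, TWIST1, TCF4 and PRRX1 had under 30. On the deposited RPKM scale, which divides by gene length, SNAI1 was highest in the knockdown group (7.85 ± 0.307), followed by FOXC2 (4.85 ± 0.553) and ZEB1 (4.52 ± 0.115; SD, n = 3). FOXC2 was highest in the control group (10.2 ± 3.61), followed by ZEB1 (7.02 ± 0.451) and SNAI1 (5.98 ± 0.429; SD, n = 3). FOXC2 and ZEB1 overlapped in the knockdown libraries. In the control libraries each FOXC2 value lay above each ZEB1 value, and each ZEB1 value above each SNAI1 value, although FOXC2 itself ranged widely (7.63 to 14.4 RPKM). Each of these 3 genes lay mid-range: the mean of ZEB1 was above that of 41.1% of tested genes in the knockdown and 50.6% in the control group. TWIST2 (1.33 ± 0.131) and FOXC1 (1.13 ± 0.0575) followed in the knockdown group, in the other order from the control group, where TWIST2 had 1.59 ± 0.138 and FOXC1 2.16 ± 0.194 RPKM (SD, n = 3 each). The knockdown values of TWIST2 and FOXC1 met at 1.19 RPKM, and their control values did not overlap.

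ZEB1 (gene ID 6935, on chromosome 10 of GRCh38 at 31318417 to 31529804), the zinc finger and homeodomain repressor of CDH1, had 32.1, 32.7 and 31.1 CPM in the knockdown libraries. The control libraries had 51.0, 52.5 and 47.0 CPM. All knockdown values lay below all control values, and the replicates of each group were close together. The knockdown level was 63.7% of the control level (log2 fold change −0.65, SE 0.0587, edgeR adjusted p = 2.26e-06). Tested for a change beyond 1.5-fold, ZEB1 was not called (edgeR adjusted p = 0.208).

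ZEB1-AS1, a noncoding RNA read from the opposite strand at the ZEB1 start, had 1.15, 1.33 and 1.5 CPM in the knockdown libraries, against 2.12, 1.88 and 2.27 CPM in the control libraries. It fell by 0.68 on the log2 scale (SE 0.162, edgeR adjusted p = 0.00335) and had 36 to 58 reads per library. In the GENCODE 29 annotation its exons share 366 bases with those of ZEB1, which is 4.23% of the exon bases of ZEB1 and 9.55% of its own. No source states whether strand was used in counting, so reads in the shared bases cannot be assigned to either gene. The 5 genes whose pattern over the 6 libraries was nearest to that of ZEB1 (distance between centred log2 CPM, out of 12367 genes) were C16orf46, SHPRH, INTS13, CCDC91 and KPNB1, at distances of 0.0428 to 0.055.

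SNAI1 (gene ID 6615, on chromosome 20 of GRCh38 at 49982980 to 49988886), the zinc finger protein Snail, moved the other way from ZEB1. It had 14.3, 13.4 and 13.3 CPM in the knockdown libraries, against 9.67, 10.7 and 11.3 CPM in the control libraries. The groups did not overlap, and the rise was of 1.30-fold (log2 fold change 0.38, SE 0.0815, edgeR adjusted p = 0.0017; adjusted p = 1 against a 1.5-fold change). Within a library, the RPKM of SNAI1 was 1.81, 1.66 and 1.74 times that of ZEB1 in the knockdown libraries. The same ratio was 0.768, 0.826 and 0.973 in the control libraries. SNAI1 thus lay above ZEB1 in each knockdown library and below it in each control library. An exact two-sided permutation test of this ratio gave p = 0.1, the smallest p that 3 against 3 libraries allow. That outcome was fixed once the groups did not overlap for either gene, with SNAI1 higher and ZEB1 lower. It adds nothing to the changes of the single genes.

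ZEB2 and SNAI2, the closest relatives of these repressors, were close to silent. ZEB2 (chromosome 2, 144384081 to 144520119), which represses many of the same genes as ZEB1, had 16, 26 and 15 reads in the knockdown libraries, against 12, 7 and 10 in the control libraries. On the CPM scale the groups overlapped, and the change did not pass (log2 fold change 0.56, SE 0.372, edgeR adjusted p = 0.208). Without knockdown replicate 2 the value was 0.16. SNAI2 (chromosome 8, 48917598 to 48921429), the protein Slug, had 16, 15 and 14 reads in the knockdown libraries, against 10, 6 and 6 in the control libraries. On the CPM scale its lowest knockdown value exceeded its highest control value, yet the change did not pass (log2 fold change 0.61, SE 0.316, edgeR adjusted p = 0.129). The exact 95% interval of the count ratio, knockdown over control, was 0.898 to 2.67 for SNAI2 and 0.923 to 2.38 for ZEB2, and covers counting error only.

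Among the bHLH factors, no member passed. TWIST2 (chromosome 2, 238848085 to 238910534), a dermal and mesenchymal repressor, had 2.61, 3.02 and 3.16 CPM in the knockdown libraries and 3.28, 3.42 and 3.92 CPM in the control libraries. All 3 knockdown values lay below the control values, with a log2 fold change of −0.28 (SE 0.128, edgeR adjusted p = 0.0693). TWIST1 (chromosome 7, 19113047 to 19117636), its paralog, had 9, 10 and 13 reads in the knockdown libraries, against 8, 4 and 4 in the control libraries, and did not reach the count filter. Tested without that filter, it stood at 0.57 (edgeR adjusted p = 0.361; 44.1% of all genes were called without the filter). TCF4 (chromosome 18, 55222185 to 55635957), which encodes the E-protein E2-2, had 23, 27 and 23 reads in the knockdown libraries and 23, 24 and 23 in the control libraries. With the deeper knockdown libraries this came to a log2 fold change of −0.36 (SE 0.238, edgeR adjusted p = 0.208). The value was −0.17 without knockdown replicate 1 and −0.54 without knockdown replicate 2.

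TCF3 and TCF12, the other E-protein genes that encode partners of TWIST proteins, had higher RPKM than TWIST1, TWIST2 and TCF4 in both groups, and they moved in opposite directions. TCF3, which encodes E12 and E47 and is itself known as a repressor of CDH1, had 44.7, 46.8 and 42.4 CPM in the knockdown libraries. The control libraries had 164, 153 and 196 CPM, all above the knockdown values, and TCF3 fell (fold change 0.261, log2 fold change −1.94, SE 0.0838, edgeR adjusted p = 7.99e-09). TCF12, the E-protein HEB, rose slightly, with 141 ± 2.94 CPM in the knockdown and 124 ± 7.84 CPM in the control group (SD, n = 3 each; log2 fold change 0.18, edgeR adjusted p = 0.00796). The RPKM of TCF3 was 0.273, 0.274 and 0.254 times that of TCF12 in the knockdown libraries. In the control libraries it was 1.10, 0.984 and 1.43 times that of TCF12 (exact two-sided permutation p = 0.1). Here too the p was fixed, since the groups overlapped for neither gene and the genes moved in opposite directions.

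**Figure D2:**
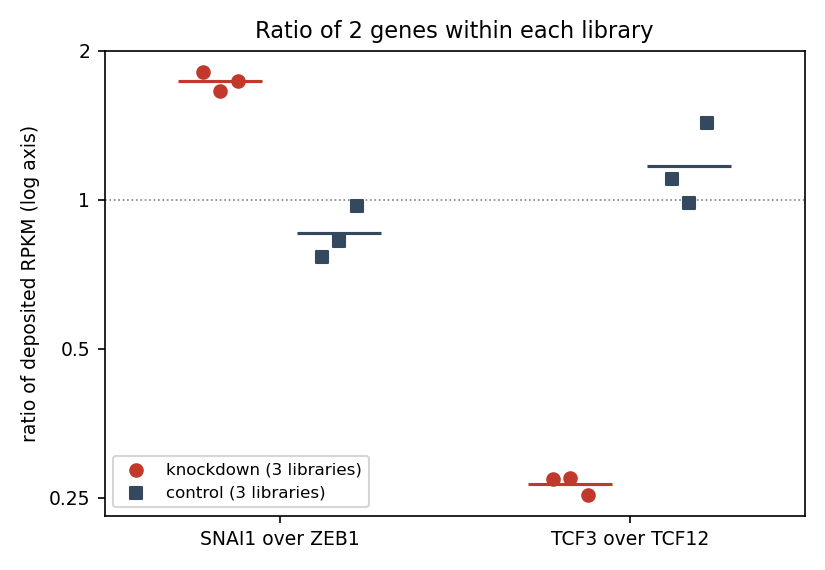
Ratio of the deposited RPKM of SNAI1 to ZEB1 and of TCF3 to TCF12 within each library (log axis), knockdown left and control right, with a line at each mean. The SNAI1 to ZEB1 ratio is above 1 in the 3 knockdown libraries and below 1 in the 3 control libraries; the TCF3 to TCF12 ratio is 0.254 to 0.274 in the knockdown and 0.984 to 1.43 in the control group.

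Of the 4 ID genes, whose proteins sequester E-proteins, 2 rose and none fell (50% called, against 67.3% of all genes). ID2 had 4.75, 3.75 and 4.79 CPM in the knockdown libraries, against 2.92, 3.04 and 2.98 CPM in the control libraries (log2 fold change 0.58, SE 0.126, edgeR adjusted p = 0.00173). ID3 rose by 0.23 (SE 0.0826, edgeR adjusted p = 0.028), with 1 control value, that of replicate 3, inside the knockdown range. ID1 had 115, 109 and 106 CPM in the knockdown libraries and 86.9, 76.9 and 113 CPM in the control libraries, and did not pass (log2 fold change 0.25, edgeR adjusted p = 0.0615). Without control replicate 3, ID1 stood at 0.42 (edgeR adjusted p = 2.77e-09; 73.1% of all genes were called without that library). With all 6 libraries, ID1 also passed with DESeq2 size factors (0.26, edgeR adjusted p = 0.0439), with library totals alone, without the count filter and in both limma-voom fits, so its call depends on scaling, filter and test. ID4 had 6 to 15 reads per library and stood at −0.09 (edgeR adjusted p = 0.866). Without control replicate 3, 3 of the 4 rose; without knockdown replicate 1 or 2, or control replicate 1 or 2, 1 rose.

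**Figure D3:**
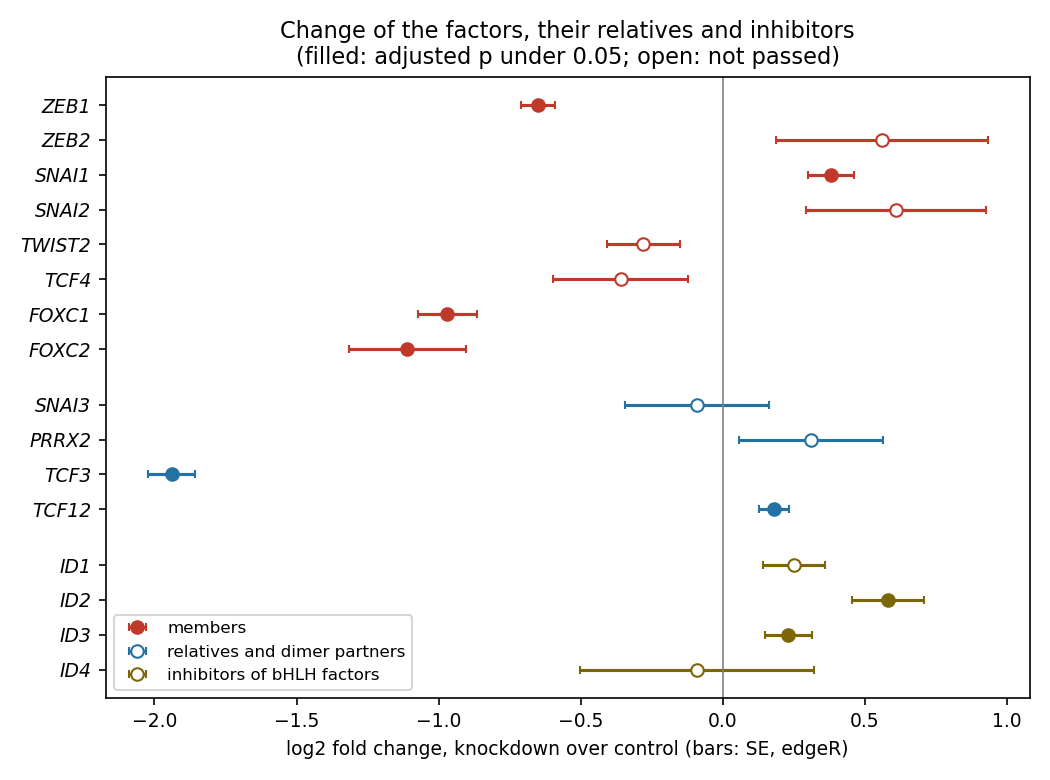
Log2 fold change, knockdown over control, of the 8 tested factor genes, of their relatives and dimer partners and of the ID genes; bars are SE from edgeR and filled points passed at an adjusted p of 0.05. TCF3 lies furthest to the left at −1.94, and among the factors FOXC2 does at −1.11.

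FOXC1 and FOXC2, paralogous forkhead factors, both fell to about the same extent. FOXC1 (gene ID 2296, on chromosome 6 of GRCh38 at 1609915 to 1613897) had 3.86, 4.2 and 3.83 CPM in the knockdown libraries, against 7.31, 7.23 and 8.58 CPM in the control libraries. The groups were well separated, and the knockdown level was 51.4% of the control level (log2 fold change −0.97, SE 0.104, edgeR adjusted p = 9.26e-06). FOXC2 (gene ID 2303, on chromosome 16 of GRCh38 at 86566829 to 86569728) had 7.83, 9.42 and 7.72 CPM in the knockdown libraries, against 15.1, 13.2 and 25.2 CPM in the control libraries. Control replicate 3 was far above the other control libraries, but all 3 lay above the knockdown values (log2 fold change −1.11, SE 0.205, edgeR adjusted p = 0.000569). Without that library the log2 fold change was −0.79. FOXC1 and FOXC2 were the only ones of the 8 that also passed against a 1.5-fold change (edgeR adjusted p = 0.00276 and 0.0184), a test that 19.7% of all genes passed, with 9.16% of all genes lower.

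Both genes lie in clusters of forkhead genes, and the neighbours were read in the same way. On chromosome 6, FOXQ1 (1312098 to 1314758) and FOXF2 (1389576 to 1395603), further forkhead factors, each stood at −0.29 on the log2 scale (SE 0.0909 and 0.1; edgeR adjusted p = 0.0145 and 0.0241), a smaller value than that of FOXC1. Without control replicate 3 they stood at −0.17 and −0.16. GMDS (1623806 to 2245605), a GDP-mannose dehydratase gene next to FOXC1, rose, with 20.2, 21.4 and 21.1 CPM in the knockdown libraries and 12, 10.6 and 12.1 CPM in the control libraries (log2 fold change 0.85, SE 0.075). The FOXC1 cluster therefore held changes in both directions. On chromosome 16, FOXL1 (86578549 to 86583478) had 4.33, 4.9 and 4.39 CPM in the knockdown libraries, against 17.3, 15.1 and 18 CPM in the control libraries. That fall of FOXL1 (log2 fold change −1.90, SE 0.0954, edgeR adjusted p = 2.42e-08) was larger in size than that of FOXC2; the difference between them was not tested.

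FOXC2-AS1, the antisense RNA of FOXC2, fell by 1.32 on the log2 scale (SE 0.144, edgeR adjusted p = 1.04e-05). In GENCODE 29 its exons share 145 bases with those of FOXC2, which is 5% of the exon bases of FOXC2 and 45.5% of its own, so its value is uncertain without strand. FOXF1, the other forkhead gene there, had 0 to 2 reads per library. Of 7 neighbouring RNAs tested at the loci of the 10 genes and of SNAI3, 1 rose, 5 fell and 1 did not pass. This was 85.7% called, against 67.3% of all genes, of which 34.2% were lower. FOXQ1 and FOXF2 count both here and among the relatives. The one that did not pass was SNAI3-AS1, at −0.07 (edgeR adjusted p = 0.626).

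**Figure D4:**
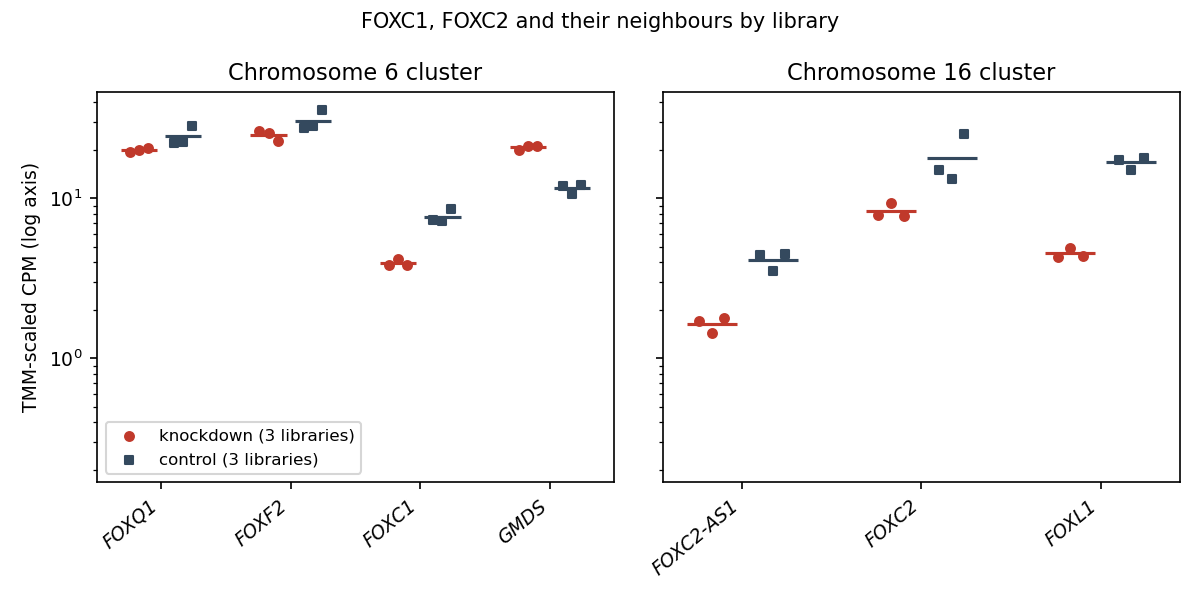
TMM-scaled CPM (log axis) of FOXC1, FOXC2 and their neighbours in each library, knockdown left and control right, with a line at each group's mean. FOXQ1, FOXF2, FOXC1, FOXC2, FOXC2-AS1 and FOXL1 have every knockdown point below every control point, and GMDS has every knockdown point above.

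PRRX1 (gene ID 5396, on chromosome 1 of GRCh38 at 170662768 to 170739421) had 18, 8 and 4 reads in the knockdown libraries and 8, 0 and 6 in the control libraries, and did not reach the count filter. The ratio of its counts was 1.60 with an exact 95% interval of 0.823 to 3.26, which covers counting error only. PRRX2, its paralog, was the better measured of the pair, with 5.22, 6.04 and 4.59 CPM in the knockdown libraries and 2.96, 2.99 and 6.58 CPM in the control libraries. It did not pass (log2 fold change 0.31, edgeR adjusted p = 0.294). Control replicate 3 was above every other library, and without it PRRX2 stood at 0.82 (edgeR adjusted p = 1.43e-05).

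Among 16 relatives and further factors of the transition, 4 rose and 5 fell of 12 tested (75% called, against 67.3% of all genes). Their median log2 fold change was −0.04. TCF3 had the largest change of the 12. MSX2, a homeobox repressor, fell by 0.72 (SE 0.0849, edgeR adjusted p = 1.93e-05). HMGA2, a chromatin protein that induces SNAI1 and TWIST1, rose by 0.36 (SE 0.0399, edgeR adjusted p = 1.31e-05), and SOX4, an upstream activator, by 0.19 (SE 0.0484). MSX1, a paralog of MSX2, rose by 0.42 (SE 0.117, edgeR adjusted p = 0.0084). SNAI3, the third Snail gene, had 13 to 23 reads per library and stood at −0.09 (edgeR adjusted p = 0.769). The number of falls was 3 without knockdown replicate 1 or without knockdown replicate 3.

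The genes of corepressors and other cofactors of these factors changed by small amounts. The list also holds EP300 (0.15) and KAT2B (−0.39), which encode coactivators. All 21 were tested, 9 rose and 6 fell (71.4% called, against 67.3% of all genes), none passed against a 1.5-fold change, and the median was 0.06. SUV39H1, a histone H3 lysine 9 methyltransferase recruited by SNAI1, rose by 0.59 (SE 0.0559), and DNMT1, the maintenance DNA methyltransferase, fell by 0.51 (SE 0.0419). AJUBA, a LIM protein that bridges SNAI1 to PRMT5, rose by 0.43 and RCOR3, a CoREST protein, by 0.47. CHD4, the NuRD ATPase, rose by 0.30, while SIN3A, a scaffold of histone deacetylases, fell by 0.36. For these 6 genes the edgeR adjusted p lay at or below 3.44e-05.

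Genes that set the stability of the factors' proteins moved both ways, 7 up and 8 down of 23, with a median of −0.04. The share called was 65.2%, close to the 67.3% of all genes. Against a 1.5-fold change, 5 were higher and 0 lower (10.6% and 9.16% of all genes). The rises included FBXW7, a substrate receptor of ubiquitin ligases that acts on SNAI1 (log2 fold change 1.39, SE 0.0672), and BTRC, the receptor that marks SNAI1 after GSK3B phosphorylation (0.97, SE 0.0584). CTDSP2 (0.74) and CTDSPL (0.79), small phosphatases of a family that dephosphorylates SNAI1, and MDM2 (0.83), a ubiquitin ligase, also rose. GSK3B itself stood at 0.04 (edgeR adjusted p = 0.545). Among the falls were FBXL5 (−0.67, SE 0.0794) and FBXL14 (−0.61, SE 0.0910), receptors that also target SNAI1, and the kinase subunit gene CSNK2A1 (−0.48, SE 0.0472). These are RNA levels, and protein was not measured here.

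Among 26 upstream inducers, 12 rose and 7 fell of 25 tested (76% called, against 67.3% of all genes), with a median of 0.12. The genes of the TGF-beta pathway, a main inducer of ZEB and SNAI genes, did not move one way. The receptor gene TGFBR2 fell by 1.03 (SE 0.0434), while TGFBR1, which encodes its partner, rose by 0.22 (SE 0.0654, edgeR adjusted p = 0.0123). The signal transducer genes SMAD2 (by 1.0, SE 0.0455), SMAD3 (by 0.23) and SMAD4 (by 0.44, SE 0.0612) fell, and BMP7, a related ligand, rose by 0.53 (SE 0.123). The ligand genes TGFB1 (0.15), TGFB2 (0.12) and TGFB3 (0.05) did not pass, although TGFB1 did without control replicate 3 (0.33, edgeR adjusted p = 8.25e-07). WWTR1, the transcriptional coactivator TAZ, fell by 0.72 (SE 0.0376), and the NF-kB subunit gene NFKB1 by 0.90 (SE 0.0608). JAG1, a Notch ligand, rose by 0.67 (SE 0.0444). PDGFRB, a receptor of mesenchymal cells, had 7.29, 7.66 and 7.45 CPM in the knockdown libraries, against 1.84, 1.93 and 2.04 CPM in the control libraries (log2 fold change 1.94, SE 0.105). PDGFRB is also a pericyte marker; whether its rise bears on the factors was not tested.

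The genes that ZEB1 and SNAI1 are known to repress were mostly higher in the knockdown cells. Of 37 listed, 33 were tested, 29 rose and 2 fell (93.9% called, against 67.3% of all genes), with a median log2 fold change of 1.44, against −0.01 over all genes. At least a 2-fold rise was called for 22 (8.01% of all genes) and a 2-fold fall for 1 (6.01%). The list was chosen with earlier results of these data known, so these shares and the median are a description. SPINT1 (5.51, SE 0.0566), CDH1, the E-cadherin gene (3.46, SE 0.0447), CGN, the tight junction protein cingulin (3.55, SE 0.0699), ELF3 (2.94, SE 0.0578), DSP (2.05, SE 0.0522) and EPCAM (2.35, SE 0.0627) had the smallest p. ESRP2, a splicing regulator, fell by 0.70 (SE 0.0594) and MUC1, a surface mucin, by 1.83 (SE 0.0774). CRB3 and RAB25, a GTPase of apical recycling, did not reach the filter. CRB3 had 8, 9 and 12 reads in the knockdown libraries and 2, 1 and 0 in the control libraries, a count ratio of 7.22. The exact 95% interval of that ratio was 2.24 to 37 and covers counting error only, not the spread among libraries.

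Set beside the E-box matches, most genes rose whether or not their window held one. Of the 11 repressed genes with a match, 8 rose, 1 fell and 2 were not tested. All 6 genes in the promoter table without a match rose too: MARVELD2, CLDN3, CLDN4, CGN, KLF4 and KLF5. MUC1, the gene that fell, had 2 matches in its window. DSP and JUP, both desmosomal, had 2 matches each and rose by 2.05 and 1.17. Of the genes with none, CLDN4 rose by 0.93, while CGN rose by more than DSP or JUP. Whether a match went with a larger rise was not tested.

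**Figure D5:**
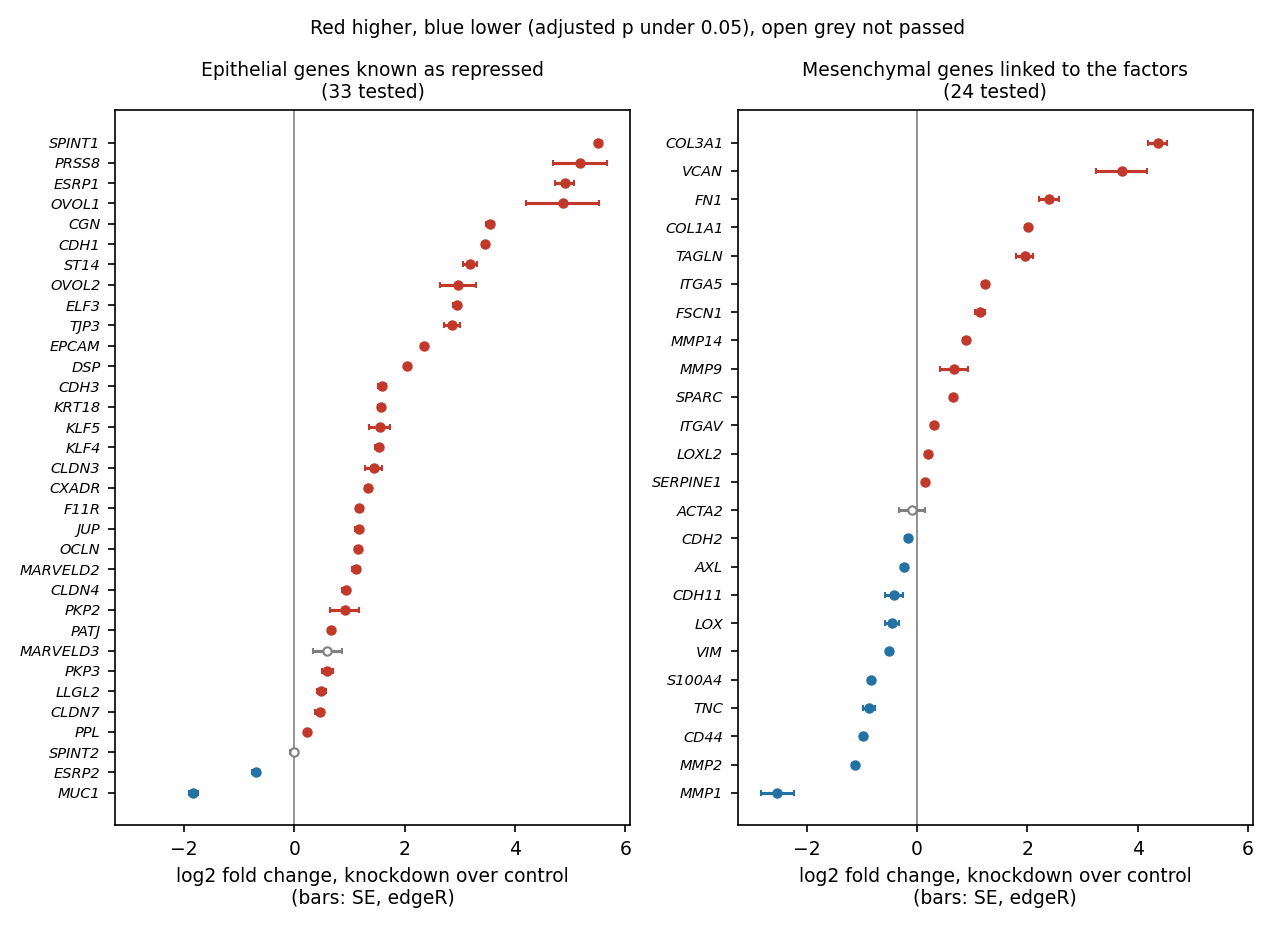
Log2 fold change, knockdown over control, of 33 tested genes known as repressed by the factors (left) and of 24 tested mesenchymal genes linked to them (right); bars are SE from edgeR. On the left, 29 points are red (higher) and 2 blue (lower); on the right, 13 are red and 10 blue.

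The mesenchymal genes linked to the same factors split, with 13 up and 10 down of 24 tested and a median of 0.17. Nearly all of those tested were thus called (95.8%, against 67.3% of all genes). That list too was chosen with earlier results known, so the share is a description. MMP2, a matrix protease, fell by 1.13 (SE 0.0487), and CD44, a hyaluronan receptor, by 0.97 (SE 0.0437). CDH2, the N-cadherin gene, fell by 0.17 (SE 0.0485, edgeR adjusted p = 0.00809), while its epithelial counterpart CDH1 rose 11-fold. COL1A1 (2.01, SE 0.0601), COL3A1 (4.36, SE 0.174), ITGA5 (1.23, SE 0.0486), MMP14 (0.89) and FN1 (2.39, SE 0.175) rose. The microRNA loci that restrain ZEB1 and ZEB2 (MIR200A, MIR200B, MIR429, MIR200C and MIR141) had 0 reads in all 6 libraries, but mature microRNAs lack poly(A) and were not measured by this assay.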

How the data were processed

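Per the submitters' processing notes, reads were aligned with GSNAP to GRCh38; the sources used here give no version, annotation, strand setting or filter. Per the file headers, the authors deposited for every gene model a count of uniquely aligned reads and an RPKM adjusted by a size factor. Count over RPKM was a constant per gene times one per library. Counts were tested as deposited, and RPKM served to compare levels between genes. Symbols came from RefSeq (GRCh38.p14) for 27814 of 30727 IDs; the other IDs, with 0.323% to 0.338% of reads per library, were tested as well.

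Counts were filtered with filterByExpr (minimum count 10, minimum total 15), scaled by TMM and tested with edgeR 4.0.16 (glmQLFit, glmQLFTest, two-sided; Benjamini-Hochberg adjustment over 15190 genes, threshold 0.05) in R 4.3.3. The SE is the size of the log2 fold change over the square root of F. The biological coefficient of variation was 0.0237 within the knockdown and 0.0779 within the control group.

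Replicates are numbered in accession order, as names only. The members and lists were chosen with earlier results of these data known. Named were the members, the KMT5 genes, CDH1, the 5 genes nearest to ZEB1, the 6 smallest p per list, the family members and dimer partners, and the ID genes; other genes named beside a list (such as FN1, CDH2, ESRP2, MUC1, TGFBR1, SMAD3, SMAD4 and BMP7) were chosen after their values were seen. Alternatives used DESeq2 1.42.0 and limma 3.58.1.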

Additional observations from a re-analysis of the deposited data

How the results depend on the processing

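No paired analysis was possible because the labels give no replicate numbers; those used here follow accession order. Counts of calls, list medians and the log2 fold changes of the 8 tested factor genes were recomputed under 15 alternatives: 9 of scaling, filter or test, and 6 that leave out a library. ZEB2, SNAI2 and TCF4 had 14, since a required mean log2 CPM of 1 removes them; level ratios, motif shares, marker sums and likeness to ZEB1 were not recomputed. Of 522 such values, 498 kept their direction and side of the threshold or stayed close to the main value, and no log2 fold change of a factor gene changed sign. ZEB1, FOXC1, FOXC2 and SNAI1 passed under every alternative except glmTreat against a 1.5-fold change, where ZEB1 (adjusted p = 0.208) and SNAI1 (adjusted p = 1) did not. Under glmTreat 2998 genes passed in all. Of the factor genes 0 were higher, of the relatives 0 higher and 1 lower, and of the ID genes 0 higher. Corepressors and cofactors had 0 higher and 0 lower, and protein turnover genes 5 higher and 0 lower. Upstream inducers had 3 higher and 4 lower, mesenchymal genes 8 higher and 5 lower, and neighbouring RNAs 2 lower. A test against a larger change calls fewer genes by construction. With each library left out in turn, 9184 to 11277 genes passed, relatives that fell numbered 3 to 5, and ID genes that rose 1 to 3. The median of the relatives changed sign, to 0.02 when a mean log2 CPM of 1 was required, 0.01 without knockdown replicate 1 and 0.04 without control replicate 2; the cause was not tested. Under 30 reads per library, as for ZEB2, SNAI2, TWIST1, TCF4 and PRRX1, the count intervals leave changes of either direction possible.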
